A study of Homo sapiens with 30 samples.

Results

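The 9 genes described here encode corepressors of the TLE family (TLE1, TLE2, TLE3, TLE4 and the short member AES, whose newer symbol is TLE5), the nuclear receptor corepressor NCOR1, and the p160 nuclear receptor coactivators NCOA1, NCOA2 and NCOA3. They were taken by gene symbol, and 9 of 9 were found among the 26443 genes with values in the deposited tables. The series holds 30 RNA-seq libraries of LNCaP, a prostate cancer line of human origin, in 10 groups of 3. In the pLKO experiment, cells were infected for 5 days with an shRNA against USP7 (a deubiquitinase; group shUSP7), BUB3 (a spindle checkpoint protein; shBUB3) or FOXA1 (a forkhead transcription factor of luminal cells; shFOXA1), or with a control construct (pLKO). In the siRNA experiment, cells were transfected for 4 days with an siRNA against EZH2, the polycomb histone methyltransferase (siEZH2), or with a control siRNA (siCtrl). In the pGIPZ experiment, also of 5 days, cells carried an shRNA against FOXA1 together with HA-tagged K295A FOXA1 (shFoxA1 + K295A), with HA-tagged FOXA1 labelled WT (shFoxA1 + WT) or with a control (shFoxA1), or they carried a control shRNA (pGIPZ). The sample range that the labels give for those 5 days leaves out the third shFoxA1 + K295A library. The spelling shFOXA1 stands for the pLKO experiment and shFoxA1 for the pGIPZ experiment, and the labels do not say whether their hairpins are the same. Nor do they name the 3 libraries of a group as independent cultures, and the p-values below describe the spread among these libraries, which may be technical.

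Proteins of the TLE family do not bind DNA themselves. HES, RUNX, TCF/LEF and FOXA factors bring them to chromatin, where they recruit histone deacetylases, and AES shares their N-terminal part but lacks the WD repeats through which the long forms meet many partners. NCOR1 links nuclear receptors without an activating ligand to histone deacetylases, whereas the p160 coactivators bind receptors that carry one and recruit histone acetyltransferases.

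The targeted genes had lower levels under their own constructs. USP7 averaged 6.21 FPKM in shUSP7 and 28.2 FPKM in pLKO libraries, BUB3 4.00 FPKM in shBUB3 and 36.3 FPKM in pLKO libraries, and EZH2 4.98 FPKM in siEZH2 and 12.6 FPKM in siCtrl libraries. FOXA1 averaged 59.0 FPKM in shFOXA1 and 116 FPKM in pLKO libraries, and 82.5 RPKM in shFoxA1 and 132 RPKM in pGIPZ libraries. Its level was 151 RPKM in shFoxA1 + K295A and 152 RPKM in shFoxA1 + WT libraries, where reads of the construct and of the cells' own gene cannot be told apart. EZH2 was also lower without its own siRNA, at 6.27, 4.55 and 5.87 FPKM in shUSP7, shBUB3 and shFOXA1 libraries and 12.6 FPKM in pLKO libraries. It averaged 9.59 RPKM in shFoxA1 and 9.78 RPKM in pGIPZ libraries. FOXA1 was lower in siEZH2 (91.2 FPKM) than in siCtrl libraries (133 FPKM). BUB3 averaged 15.6 FPKM in shFOXA1 and 28.4 FPKM in shUSP7 libraries. USP7 averaged 21.9 FPKM in shFOXA1 and 32.6 FPKM in shBUB3 libraries. The part of these shifts in the results below was not tested. All 10 luminal prostate markers examined had a mean of at least 1 in every group, and the summed level of these markers was 737 to 838 FPKM in siEZH2 and 2419 to 2521 FPKM in siCtrl libraries. It was 1326 to 1392 FPKM in shUSP7, 1678 to 1957 FPKM in shBUB3 and 1736 to 1828 FPKM in shFOXA1 libraries, against 2407 to 2458 FPKM in pLKO libraries. In the pGIPZ experiment the sum was 1923 to 1944 RPKM in shFoxA1 + K295A, 1977 to 2027 RPKM in shFoxA1 + WT and 2369 to 2415 RPKM in shFoxA1 libraries, against 2712 to 2760 RPKM in pGIPZ libraries. Of 3 basal markers KRT14 alone reached 1, and their sum was 2.39 to 3.16 FPKM in shFOXA1 and 0.902 to 1.07 FPKM in pLKO libraries, and 5.42 to 7.50 RPKM in shFoxA1 and 2.61 to 2.69 RPKM in pGIPZ libraries, with the basal factor TP63 at 0 in both control groups. Of 4 immune markers, CD68 alone reached 1. Their sum was 32.1 to 34.7 RPKM in shFoxA1 and 11.7 to 14.3 RPKM in pGIPZ libraries, while the leukocyte gene PTPRC and the B cell gene MS4A1 were listed at 0 in all libraries of both groups. The sum of 5 stromal markers was 11.3 to 14.7 FPKM in siEZH2 and 3.17 to 3.88 FPKM in siCtrl libraries, with COL1A2 listed at 0 in both groups. The part of these markers in the results below was not tested. Read totals are not held here. Relative depth, from the steps between low values, spanned 0.900 to 1.30 in the pLKO, 0.602 to 0.832 in the siRNA and 0.847 to 1.30 in the pGIPZ experiment, and 11262 to 12000 genes per library had a value of at least 1.

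The third shBUB3 library stood apart in a way that touches the coregulators, most of which have long transcripts. Its FPKM values summed to 367614, and those of the other pLKO-experiment libraries to between 235344 and 306578. Relative to the mean of the other shBUB3 libraries on the log2 scale, its values were higher by a median of 0.28 over genes whose longest transcript is under 2000 nucleotides and differed by a median of -0.35 over genes with 7000 nucleotides or more. NCOA2 differed by -1.18, NCOA3 by -0.55, NCOA1 by -0.54, NCOR1 by -0.45 and TLE3 by -0.17 in this library, whereas TLE1 differed by 0.02, TLE2 by 0.23 and AES by 0.34. Since the 12 libraries of the pLKO experiment share an estimate of spread, tested changes are given with and without this library where it matters. What set this library apart was not tested.

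**Figure D1:**
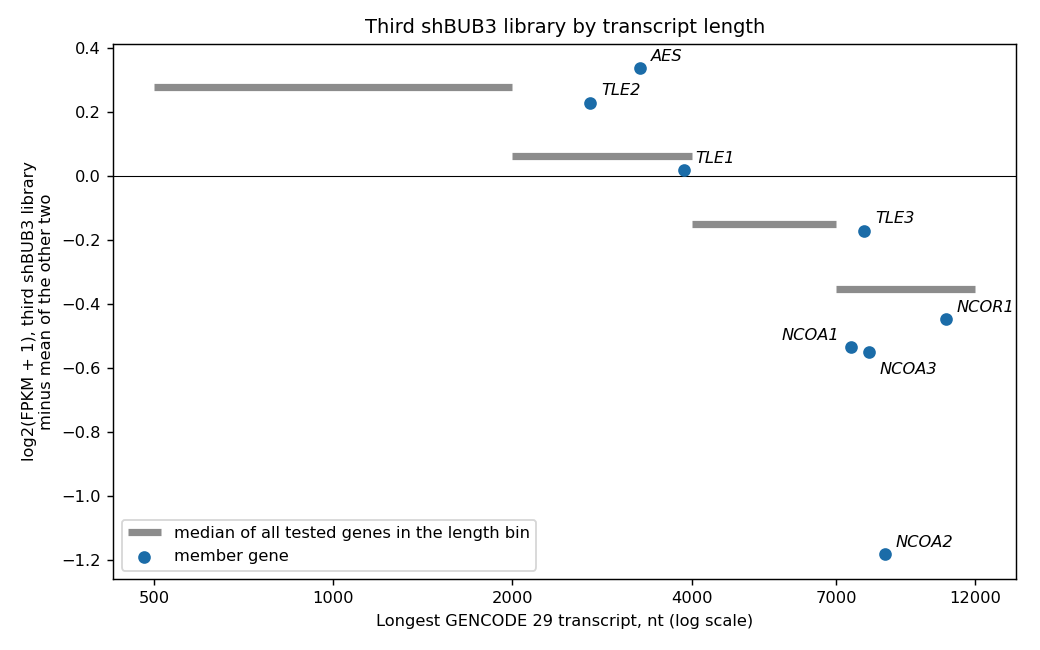
Difference on the log2(FPKM + 1) scale between the third shBUB3 library and the mean of the other shBUB3 libraries (vertical axis) against the longest GENCODE 29 transcript in nucleotides (horizontal log axis). Points are member genes and grey bars are the medians of tested genes in 4 length classes, the outer ones open-ended, which step down to -0.35 in the longest class, where NCOA2 lies lowest at -1.18.

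To place the genes, positions were read from GENCODE 29 on GRCh38. TLE1 lies at chr9:81583683-81689305 on the minus strand, and TLE4 on the same chromosome at chr9:79571773-79726882 on the plus strand. TLE2 (chr19:2997638-3047635) and AES (chr19:3052910-3063107) are neighbours on the minus strand of chromosome 19. TLE3 is at chr15:70047790-70098176 and NCOR1 at chr17:16029157-16218185, both on the minus strand. NCOA1 is at chr2:24491914-24770702 and NCOA3 at chr20:47501902-47656877, both on the plus strand. Exon bases are shared with genes on the opposite strand for AES (10.6% with AC005944.1), NCOR1 (2.08% with PIGL and 1.22% with AC002553.1) and NCOA3 (1.14% with SULF2). TLE4 shares 3.09% with a processed pseudogene on its own strand. The labels do not state counting by strand, so reads of such pairs cannot be told apart, and NCOR1 and TLE1 also have annotated pseudogenes (NCOR1P1, NCOR1P2, NCOR1P3 and TLE1P1) that could share reads.

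Because FOXA1 is the forkhead factor targeted in both shRNA experiments, the 250 bases before the annotated starts were searched on both strands for the forkhead letters TGTTTAC or TGTTTGC, or the variants TATTTAC or TATTTGC, which do not overlap each other. The sequences are from RefSeq (GRCh38.p14), matched by symbol with TLE5 for AES, and 3 are shown, 5′ to 3′ in the direction of the gene, because the genes stand for the strongest response (TLE1) and for promoters with a match and without exon bases of the gene (TLE2 and NCOA3). Capitals mark a forkhead match. The sequences come from chr9:81689548-81689797 (minus strand), chr19:3047636-3047885 (minus strand) and chr20:47501637-47501886 (plus strand). The TLE1 window lies upstream of the GENCODE end of that gene at 81689305, and the bases between them were not searched. Nor were the starts of TLE4 and NCOA2.
TLE1: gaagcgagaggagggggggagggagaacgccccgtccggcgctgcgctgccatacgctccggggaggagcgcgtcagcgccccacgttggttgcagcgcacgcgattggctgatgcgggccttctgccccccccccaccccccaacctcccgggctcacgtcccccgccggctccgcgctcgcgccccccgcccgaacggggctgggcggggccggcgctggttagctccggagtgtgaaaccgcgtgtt
TLE2: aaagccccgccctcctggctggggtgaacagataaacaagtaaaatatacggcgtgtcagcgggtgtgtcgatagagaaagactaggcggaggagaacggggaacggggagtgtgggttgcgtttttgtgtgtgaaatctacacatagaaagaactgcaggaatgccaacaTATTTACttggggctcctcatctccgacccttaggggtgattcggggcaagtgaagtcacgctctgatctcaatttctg
NCOA3: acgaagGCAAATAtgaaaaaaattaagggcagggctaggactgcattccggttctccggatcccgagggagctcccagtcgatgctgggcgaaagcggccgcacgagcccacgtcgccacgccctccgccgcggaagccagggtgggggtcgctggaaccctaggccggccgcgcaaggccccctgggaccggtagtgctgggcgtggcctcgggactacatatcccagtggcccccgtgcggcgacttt
The TLE1 window was 75.2% G+C with 33 CpG dinucleotides, the TLE2 window 50.8% with 12, and the NCOA3 window 66.4% with 25, where the medians over 27305 promoters were 58% and 11. No forkhead match lies in the TLE1 window, the TLE2 window holds 1 and the NCOA3 window holds 1 on the other strand. Of the 27305 promoters, which are 1 start per gene, 10.6% hold at least 1. The members were read at each annotated start, so this share is for single windows and not for genes with several starts. Of the other starts, the second of NCOR1 holds 1 match and the third of NCOA1 holds 2, whereas the second of TLE2, the 3 of TLE3, the 2 of AES, the first of NCOR1 and the first and the second of NCOA1 hold none. The letters in a window are a description of the sequence and not of binding.

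Of the 9 genes, 8 reached a level of 1 in 3 or more libraries of every experiment and were tested, and TLE4 was not. A gene passed at an adjusted p under 0.05 (limma, Benjamini-Hochberg adjustment over all genes tested), and changes are log2 fold changes of the value plus 1, with the standard error, which understate the change of low genes. Among the shRNA groups of the pLKO experiment, 5 of the 8 passed in shUSP7 against pLKO libraries, where 62.2% of all genes tested passed. In shBUB3 against pLKO libraries 4 passed (65.2% of all genes), and in shFOXA1 against pLKO libraries 4 passed (70.3% of all genes). All 8 passed in siEZH2 against siCtrl libraries, where the share over all genes was 63.3%. In the pGIPZ experiment 7 passed in shFoxA1 against pGIPZ libraries (49.2% of all genes). Against shFoxA1 libraries 7 passed with K295A (56.9% of all genes) and 7 with WT FOXA1 (55.5% of all genes). These shares are high for the genome as a whole, so the counts alone say little of the coregulators, and the sizes and directions below carry the description.

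**Figure D2:**
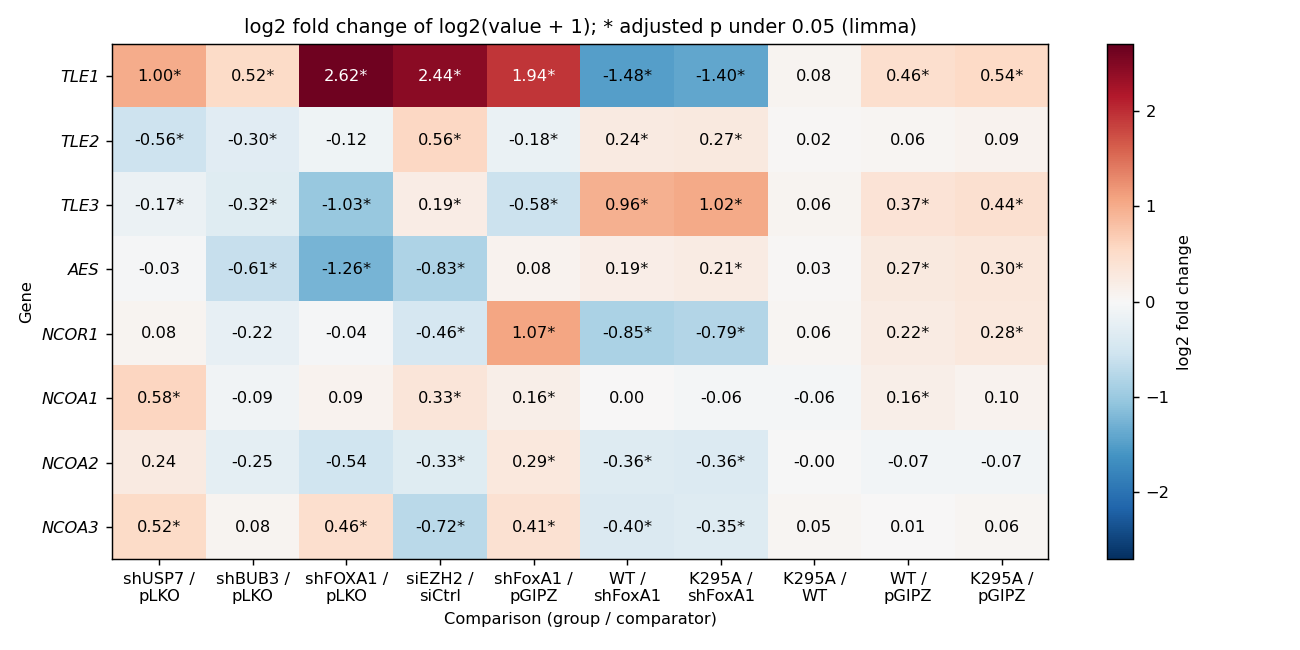
Change of each tested gene on the log2(value + 1) scale (colour and number) in 10 comparisons, each named as group over its control or comparator, with WT and K295A standing for shFoxA1 + WT and shFoxA1 + K295A. Asterisks mark an adjusted p under 0.05 in limma. TLE1 is the strongest red, at 2.62 in shFOXA1, 2.44 in siEZH2 and 1.94 in shFoxA1, and the K295A over WT column has no asterisk.

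TLE1 rose in all 5 knockdowns and had the largest change of the 8 tested genes in shUSP7, shFOXA1, siEZH2 and shFoxA1 libraries, while in shBUB3 libraries AES changed more. It had 46.4, 47.9 and 49.9 FPKM in shFOXA1 libraries, against 7.36, 7.29 and 6.35 FPKM in pLKO libraries. In siEZH2 libraries it had 27.5, 32.1 and 31.1 FPKM, against 4.59, 5.69 and 4.09 FPKM in siCtrl libraries. In shFoxA1 libraries it had 47.1, 44.5 and 45.1 RPKM, against 12.1, 10.7 and 10.8 RPKM in pGIPZ libraries. In each case the lowest knockdown library was several times above the highest control, and no values overlapped. As these are bulk samples, more RNA per cell and more cells with the RNA cannot be told apart.

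On the log2 scale the change of TLE1 was 2.62 ± 0.06 in shFOXA1 (adjusted p = 2.32e-11, limma), which ranked 18 from the highest of 12524 genes. In siEZH2 it was 2.44 ± 0.11 (adjusted p = 9.19e-08), ranked 17 of 11908, and in shFoxA1 it was 1.94 ± 0.05 (adjusted p = 2.18e-11), ranked 56 of 12563. The median over all genes was -0.15 in shFOXA1 and -0.16 in siEZH2. With libraries scaled by the median ratio of their genes, TLE1 changed by 2.79 and 2.62 there. The rise was smaller in the other pLKO groups, where TLE1 had 15.4, 15.1 and 14.5 FPKM in shUSP7 libraries and 10.6, 10.2 and 10.5 FPKM in shBUB3 libraries. Neither group overlapped the pLKO libraries, with changes of 1.00 ± 0.06 in shUSP7 (adjusted p = 3.66e-08) and 0.52 ± 0.06 in shBUB3 (adjusted p = 8.85e-06). Direct tests placed the groups in order: TLE1 was higher in shFOXA1 than in shUSP7 libraries by 1.62 ± 0.06 (adjusted p = 7.43e-10) and higher in shUSP7 than in shBUB3 libraries by 0.49 ± 0.06 (adjusted p = 1.53e-05). These pLKO comparisons share their control libraries.

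Re-expression of FOXA1 brought TLE1 down, though not to the control level. It had 16.3, 16.6 and 17.2 RPKM in shFoxA1 + K295A and 15.5, 16.3 and 15.3 RPKM in shFoxA1 + WT libraries. Against shFoxA1 libraries the change was -1.40 ± 0.05 with K295A (adjusted p = 4.13e-10) and -1.48 ± 0.05 with WT (adjusted p = 2.32e-10). Against pGIPZ libraries TLE1 stayed higher by 0.54 ± 0.05 with K295A (adjusted p = 3.17e-06) and by 0.46 ± 0.05 with WT (adjusted p = 1.45e-05). All genes shifted by a median of 0.10 with K295A against shFoxA1 and by 0.11 with K295A against pGIPZ. After median-ratio scaling TLE1 was higher than in pGIPZ libraries by 0.42 with K295A and by 0.35 with WT, and both passed.

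**Figure D3:**
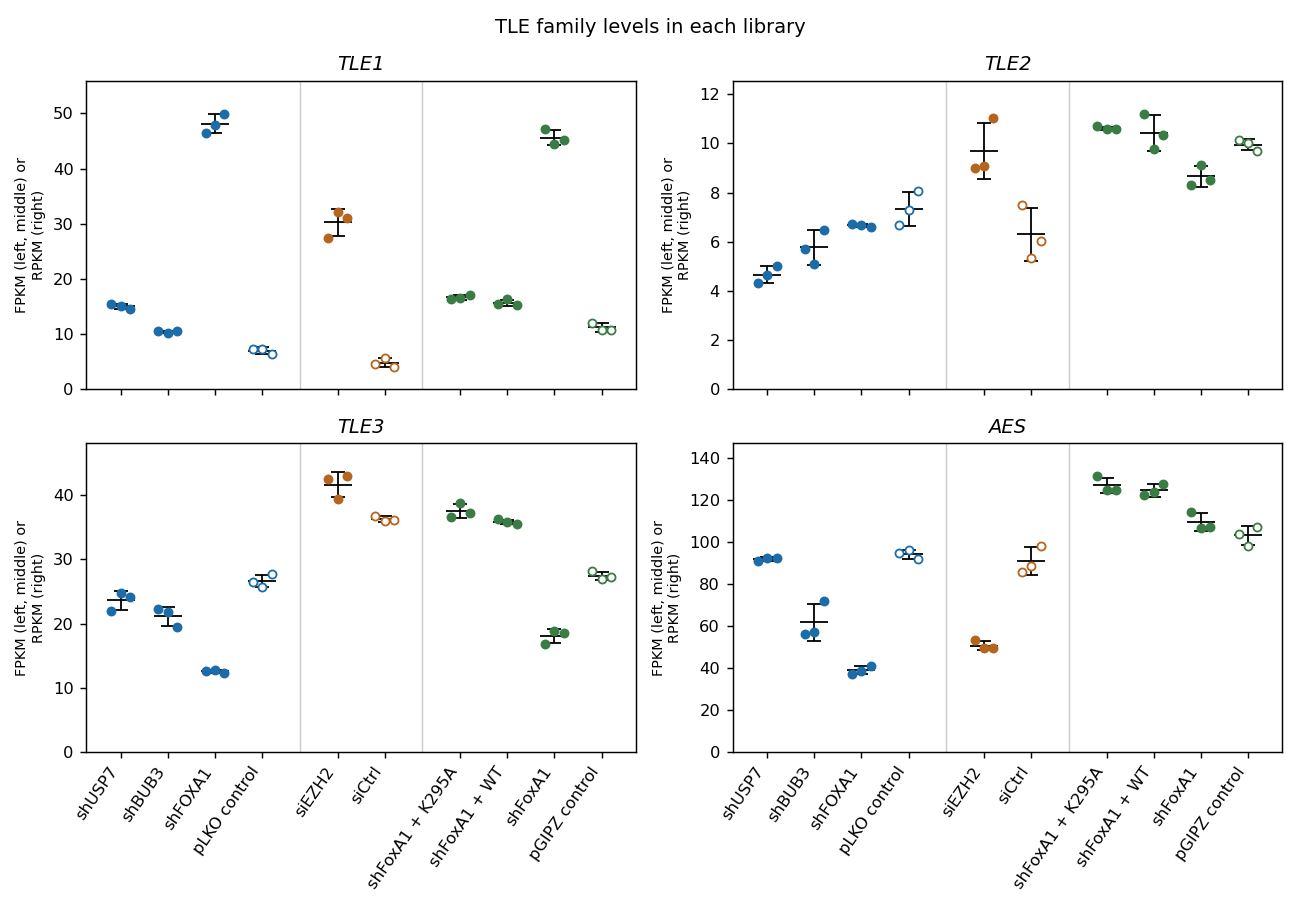
Levels of TLE1, TLE2, TLE3 and AES in each of the 30 libraries, in FPKM for the pLKO and siRNA experiments (left and middle) and RPKM for the pGIPZ experiment (right), with the mean and SD of 3 libraries per group and open symbols for controls. TLE1 is highest in the shFOXA1, siEZH2 and shFoxA1 groups of each experiment, TLE3 is lowest in shFOXA1 and shFoxA1, and AES is lowest in shFOXA1 and siEZH2 libraries.

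TLE3 moved opposite to TLE1 in both FOXA1 knockdowns and with it in siEZH2. It had 12.6, 12.7 and 12.2 FPKM in shFOXA1 libraries, against 26.5, 25.8 and 27.7 FPKM in pLKO libraries. In shFoxA1 libraries it had 16.8, 18.8 and 18.5 RPKM, against 28.2, 26.9 and 27.3 RPKM in pGIPZ libraries. Every FOXA1 knockdown library lay below every control of its experiment. The changes were -1.03 ± 0.06 in shFOXA1 (adjusted p = 3.51e-08, and -0.87 after median-ratio scaling) and -0.58 ± 0.04 in shFoxA1 (adjusted p = 2.95e-07). With FOXA1 re-expressed, TLE3 had 36.6, 38.8 and 37.2 RPKM in shFoxA1 + K295A and 36.3, 35.8 and 35.5 RPKM in shFoxA1 + WT libraries, all of them above the pGIPZ controls. Against shFoxA1 it rose by 1.02 ± 0.04 with K295A (adjusted p = 1.96e-09) and by 0.96 ± 0.04 with WT (adjusted p = 3.22e-09). Against pGIPZ it was higher by 0.44 ± 0.04 (adjusted p = 5.87e-06) and 0.37 ± 0.04 (adjusted p = 2.52e-05) in these groups.

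In siEZH2 libraries TLE3 had 42.6, 39.5 and 43.0 FPKM, against 36.8, 36.0 and 36.2 FPKM in siCtrl libraries. The groups did not overlap, and the rise of 0.19 ± 0.07 passed (adjusted p = 0.0247) but did not pass when any siCtrl library or the third siEZH2 library was left out (adjusted p of 0.0528 to 0.0821). It was 0.40 after scaling (adjusted p = 0.000449). In shBUB3 libraries TLE3 had 22.2, 21.7 and 19.4 FPKM and fell by 0.32 on the log2 scale (adjusted p = 0.000661). In shUSP7 libraries it had 22.0, 24.7 and 24.2 FPKM, below each pLKO library, and the change of -0.17 ± 0.06 was near the threshold (adjusted p = 0.032, and 0.00543 without the third shBUB3 library). It did not pass without the first or the third pLKO or the first shUSP7 library (adjusted p of 0.0673 to 0.141).

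TLE2 followed neither of them, with its largest fall in shUSP7 and its largest rise in siEZH2. It had 4.34, 4.66 and 4.99 FPKM in shUSP7 and 5.71, 5.10 and 6.50 FPKM in shBUB3 libraries, against 6.68, 7.28 and 8.05 FPKM in pLKO libraries. All shUSP7 and shBUB3 values lay below the pLKO values, and the changes were -0.56 ± 0.08 in shUSP7 (adjusted p = 0.000111) and -0.30 ± 0.08 in shBUB3 (adjusted p = 0.00712). In siEZH2 libraries TLE2 had 9.00, 9.06 and 11.0 FPKM, against 7.50, 5.35 and 6.04 FPKM in siCtrl libraries, a rise of 0.56 ± 0.12 (adjusted p = 0.00223). FOXA1 knockdown left smaller differences. In shFOXA1 libraries TLE2 had 6.73, 6.69 and 6.60 FPKM, which overlapped the pLKO libraries, and the change of -0.12 did not pass (95% interval -0.30 to 0.07, adjusted p = 0.23) and was 0.04 after scaling. In shFoxA1 libraries it averaged 8.66 ± 0.43 RPKM, against 9.95 ± 0.23 RPKM in pGIPZ libraries (SD, n = 3 each), and fell by 0.18 on the log2 scale (adjusted p = 0.0099). Against shFoxA1 libraries it rose by 0.27 with K295A and by 0.24 with WT, to 10.6 ± 0.069 and 10.4 ± 0.73 RPKM. After median-ratio scaling these rises were 0.16 and 0.15 and still passed. With the trend with transcript length removed, an alternative added after the data were seen, they were 0.13 (adjusted p = 0.0399) and 0.13, and the WT rise no longer passed (adjusted p = 0.054).

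TLE4 stayed under 1 in all 30 libraries and was near the limit of detection in the controls. Its values were whole multiples (within 0.05) of a smallest step, taken here as 1 read. Summed over 3 libraries it had 84 steps in shUSP7, 20 in shBUB3 and 91 in shFOXA1 libraries, and 6 in pLKO libraries. In the pGIPZ experiment the sums were 29 in shFoxA1 + K295A, 29 in shFoxA1 + WT and 57 in shFoxA1 libraries, and 16 in pGIPZ libraries. In the siRNA experiment they were 8 in siEZH2 and 1 in siCtrl libraries. In each shRNA experiment TLE4 thus had its highest count in the group with the most TLE1. The counts did not follow TLE1 in size. For TLE4 shUSP7 was near shFOXA1, while TLE1 averaged 15.0 FPKM in shUSP7 and 48.1 FPKM in shFOXA1 libraries. In the siRNA experiment the counts were too low to compare. In fits without a filter on low values the change was 0.30 in shFOXA1 (adjusted p = 0.000231), 0.28 in shUSP7 (adjusted p = 0.000479) and 0.25 in shFoxA1 libraries (adjusted p = 0.0101). The difference did not pass in shBUB3 (adjusted p = 0.453) or siEZH2 libraries (adjusted p = 0.173).

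Added together, the full-length genes TLE1 to TLE4 gave more transcript in each FOXA1 or EZH2 knockdown, and a different mixture. The sum per library was 66.1 to 69.1 FPKM in shFOXA1 and 40.3 to 42.1 FPKM in pLKO libraries, 79.2 to 85.1 FPKM in siEZH2 and 46.3 to 48.9 FPKM in siCtrl libraries, and 72.4 to 72.8 RPKM in shFoxA1 and 47.8 to 50.4 RPKM in pGIPZ libraries. TLE1 made up 71.2% ± 0.97 of it in shFOXA1 and 17.1% ± 1.75 in pLKO libraries, and 62.8% ± 2.00 in shFoxA1 and 23.0% ± 0.86 in pGIPZ libraries (SD, n = 3 each). TLE3, the main form in every control group, made up 18.6% ± 0.75 in shFOXA1 and 65.0% ± 1.01 in pLKO libraries. In siEZH2 libraries TLE1 reached 37.0% ± 2.57 while TLE3 remained the main form at 51.1% ± 2.50, against 10.1% ± 1.75 and 76.6% ± 1.43 in siCtrl libraries. The sum was 63.8 to 66.2 RPKM in shFoxA1 + K295A and 61.2 to 63.1 RPKM in shFoxA1 + WT libraries, with TLE1 at 25.7% ± 0.66 and 25.3% ± 0.90. Their mixture was thus near that of the pGIPZ controls while the sum was above it. In shUSP7 and shBUB3 libraries the sums, 42.0 to 44.6 and 36.4 to 38.6 FPKM, were close to those of the pLKO libraries, with TLE1 at 34.5% ± 1.95 and 27.9% ± 0.81.

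**Figure D4:**
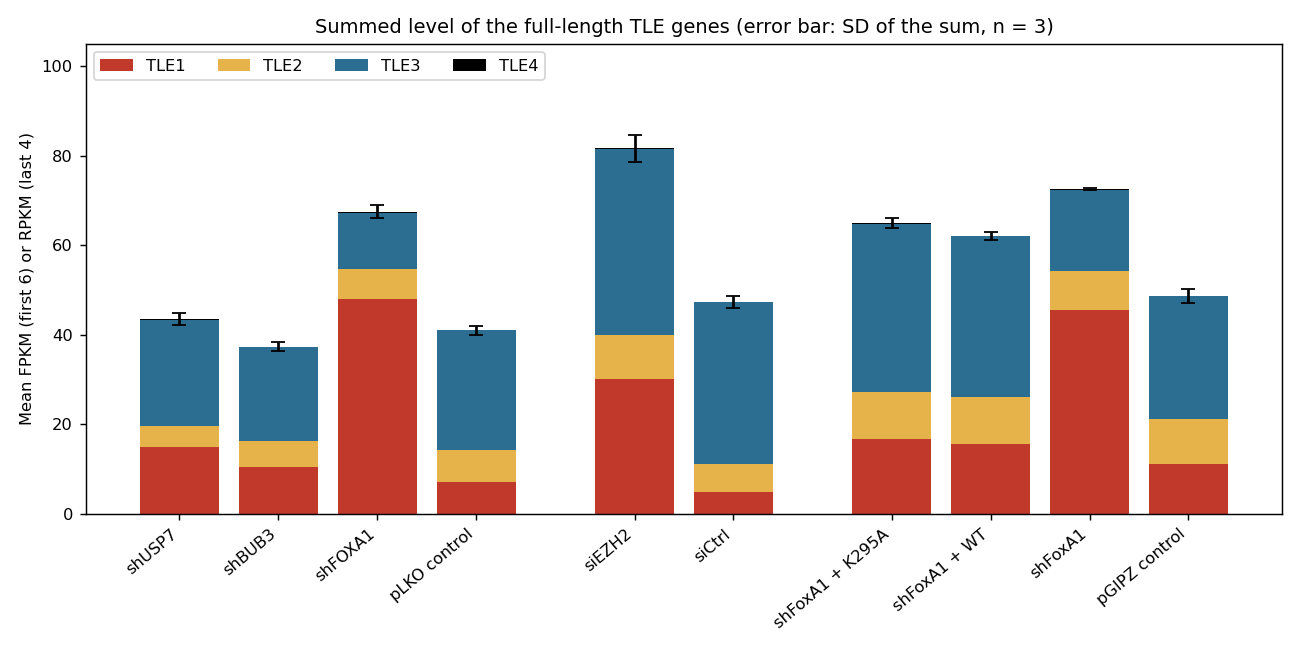
Stacked mean levels of TLE1, TLE2, TLE3 and TLE4 in each group, in FPKM for the first 6 bars and RPKM for the last 4, with the SD of the sum over 3 libraries. Totals are higher in shFOXA1, siEZH2 and shFoxA1 than in their controls, and TLE1 fills 71.2% of the shFOXA1 bar and 17.1% of the pLKO bar.

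AES, the short family member, was the most abundant of the 9 genes in all control groups and fell in 3 of the 5 knockdowns with their own controls. It had 36.8, 38.6 and 40.5 FPKM in shFOXA1 and 56.0, 56.9 and 71.5 FPKM in shBUB3 libraries, against 94.4, 95.9 and 91.5 FPKM in pLKO libraries. In siEZH2 libraries it had 52.9, 49.1 and 49.1 FPKM, against 85.5, 88.3 and 98.1 FPKM in siCtrl libraries. None of these knockdown values overlapped the controls. The change was -1.26 ± 0.08 in shFOXA1 (adjusted p = 6.79e-08, and -1.09 after scaling), -0.61 ± 0.08 in shBUB3 (adjusted p = 4.22e-05, and -0.72 without the third shBUB3 library) and -0.83 ± 0.07 in siEZH2 (adjusted p = 5.77e-06, and -0.63 after scaling). AES had 90.7, 92.1 and 92.4 FPKM in shUSP7 libraries, which overlapped pLKO, and the change of -0.03 did not pass (95% interval -0.21 to 0.14, adjusted p = 0.733).

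The pGIPZ experiment gave another picture for AES. It had 114, 107 and 107 RPKM in shFoxA1 libraries, against 104, 98.0 and 107 RPKM in pGIPZ libraries. The groups overlapped, and the change of 0.08 did not pass (95% interval 0.0017 to 0.17, adjusted p = 0.0848), though it did without the third pGIPZ library (0.11, adjusted p = 0.0381). A fall of the size seen in shFOXA1 lies outside that interval, but the difference between the experiments was not tested because their tables were normalized separately. AES had 131, 124 and 125 RPKM in shFoxA1 + K295A and 122, 123 and 128 RPKM in shFoxA1 + WT libraries. Against pGIPZ it was higher by 0.30 ± 0.04 with K295A (adjusted p = 6.21e-05) and by 0.27 ± 0.04 with WT (adjusted p = 0.000151), and after median-ratio scaling by 0.17 and 0.16, which both passed. Against shFoxA1 it rose by 0.21 with K295A and by 0.19 with WT, and neither passed after median-ratio scaling (0.10, adjusted p = 0.052, and 0.09, adjusted p = 0.0728). Per unit of full-length TLE transcript, AES stood at 0.572 ± 0.015 in shFOXA1 and 2.29 ± 0.11 in pLKO libraries, at 0.618 ± 0.046 in siEZH2 and 1.91 ± 0.19 in siCtrl libraries, and at 1.51 ± 0.061 in shFoxA1 and 2.12 ± 0.11 in pGIPZ libraries (SD, n = 3 each). The ratio was lower in each of these knockdowns than in any of its controls.

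NCOR1, the scaffold of the nuclear receptor corepressor complex, rose most in shFoxA1. It had 31.9, 32.7 and 31.8 RPKM in shFoxA1 libraries, against 15.2, 14.8 and 14.2 RPKM in pGIPZ libraries. With FOXA1 re-expressed it had 17.7, 18.0 and 18.9 RPKM in shFoxA1 + K295A and 17.6, 17.6 and 16.9 RPKM in shFoxA1 + WT libraries. The shFoxA1 libraries stood well above the other 3 groups, and the re-expression groups stood slightly above the controls without overlap. The rise in shFoxA1 was 1.07 ± 0.04 (adjusted p = 4.55e-10), ranked 224 from the highest of 12563 genes. Against shFoxA1 the change was -0.79 ± 0.04 with K295A (adjusted p = 6.52e-09) and -0.85 ± 0.04 with WT (adjusted p = 3.13e-09). Against pGIPZ NCOR1 was higher by 0.28 ± 0.04 with K295A (adjusted p = 6.46e-05) and by 0.22 ± 0.04 with WT (adjusted p = 0.000442). After median-ratio scaling these values were 0.16 and 0.12, and both passed.

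The other FOXA1 knockdown showed no such rise. NCOR1 had 25.3, 23.9 and 23.9 FPKM in shFOXA1 libraries, against 26.4, 23.9 and 24.9 FPKM in pLKO libraries. These overlapped, and the change of -0.04 did not pass (95% interval -0.26 to 0.18, adjusted p = 0.758). It turned to 0.13 after scaling (adjusted p = 0.25) and to 0.10 (adjusted p = 0.0369) with the trend with transcript length removed. In siEZH2 libraries NCOR1 had 19.9, 18.3 and 18.1 FPKM, against 26.1, 28.0 and 24.7 FPKM in siCtrl libraries, and the groups were apart. The fall was -0.46 ± 0.08 (adjusted p = 0.000388, and -0.26 after scaling). NCOR1 averaged 26.5 ± 0.13 FPKM in shUSP7, 21.6 ± 3.84 FPKM in shBUB3 and 25.1 ± 1.24 FPKM in pLKO libraries (SD, n = 3 each). Neither change passed, at 0.08 in shUSP7 (adjusted p = 0.501) and -0.22 in shBUB3 (adjusted p = 0.077). The shBUB3 value passed after scaling (-0.27, adjusted p = 0.0302) and was -0.07 without the third shBUB3 library (adjusted p = 0.175).

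**Figure D5:**
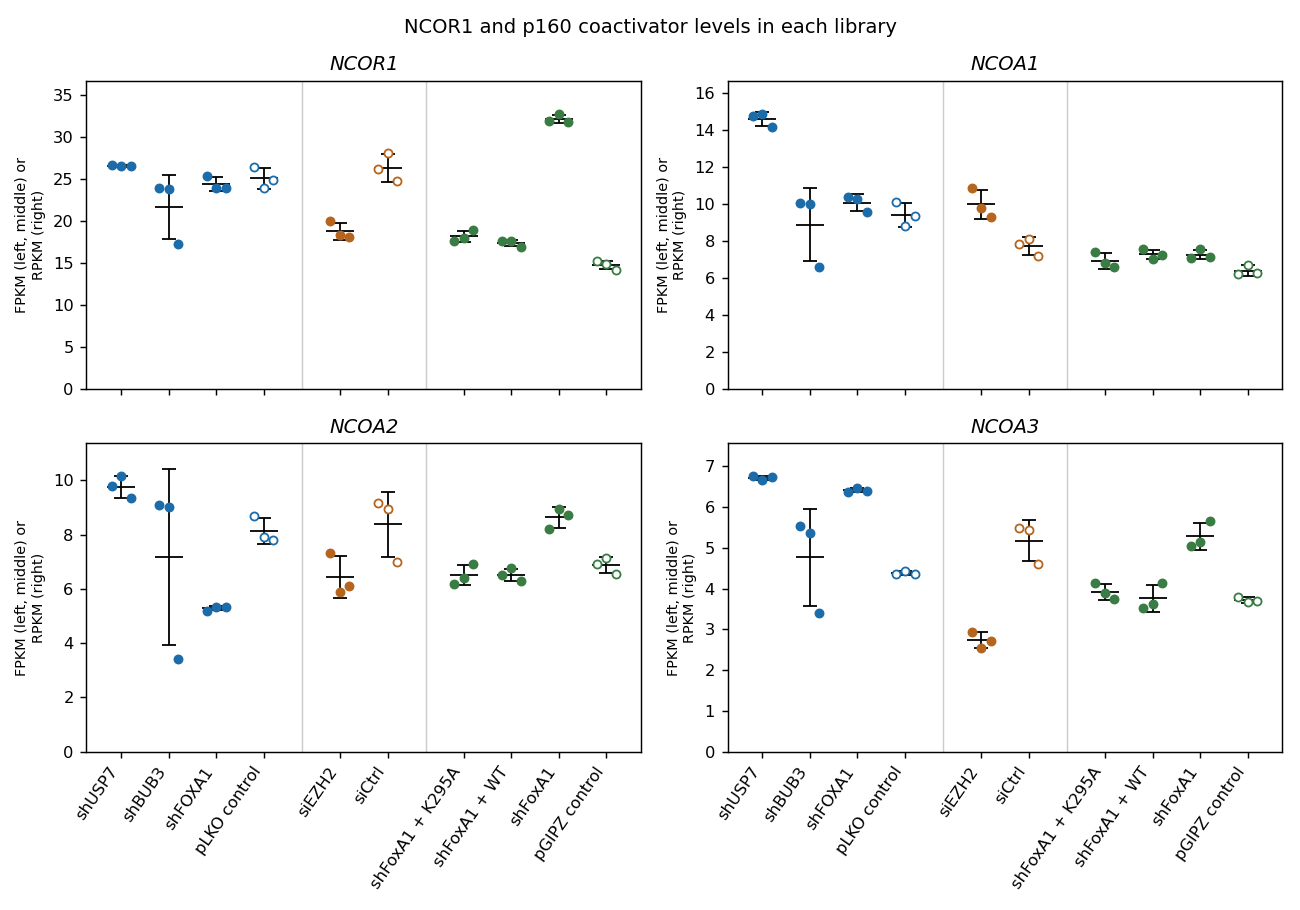
Levels of NCOR1, NCOA1, NCOA2 and NCOA3 in each of the 30 libraries, in FPKM (left and middle) and RPKM (right), with the mean and SD of 3 libraries per group and open symbols for controls. NCOR1 stands out in shFoxA1, NCOA1 in shUSP7, and the third shBUB3 library is the lowest point of its group in all 4 panels.

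NCOA1, a p160 coactivator, stood out in shUSP7 libraries. It had 14.8, 14.8 and 14.1 FPKM in shUSP7 libraries, against 10.1, 8.79 and 9.32 FPKM in pLKO libraries. All shUSP7 values were above all other values of the experiment, and the rise was 0.58 ± 0.12 (adjusted p = 0.00119). NCOA1 was also higher in siEZH2 libraries, with 10.8, 9.77 and 9.28 FPKM, against 7.81, 8.11 and 7.17 FPKM in siCtrl libraries, a rise of 0.33 ± 0.09 (adjusted p = 0.00635, and 0.52 after scaling). In shFoxA1 libraries it averaged 7.25 ± 0.25 RPKM, against 6.39 ± 0.27 RPKM in pGIPZ libraries (SD, n = 3 each). That rise of 0.16 ± 0.05 passed narrowly (adjusted p = 0.0227) and did not pass without the first or the third pGIPZ or the second shFoxA1 library (adjusted p of 0.0683 to 0.0837) or with the trend with transcript length removed (adjusted p = 0.148). NCOA1 averaged 10.1 ± 0.45 FPKM in shFOXA1 and 8.87 ± 1.97 FPKM in shBUB3 libraries, and neither change passed, at 0.09 (95% interval -0.17 to 0.35) and -0.09 (95% interval -0.36 to 0.17). The shFOXA1 value was 0.25 after scaling (adjusted p = 0.0801). It passed with the trend with transcript length removed (0.24, adjusted p = 0.0107, limma). The shBUB3 value was 0.08 without the third shBUB3 library (adjusted p = 0.189). Against shFoxA1 libraries it changed by -0.06 with K295A and 0.0036 with WT, which did not pass either, except with K295A after scaling (-0.16, adjusted p = 0.0199).

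NCOA2, on the minus strand of chromosome 8 (70109762 to 70403805), lay on opposite sides of the controls in the FOXA1 knockdowns. It had 5.19, 5.34 and 5.31 FPKM in shFOXA1 libraries, against 8.69, 7.90 and 7.80 FPKM in pLKO libraries. In shFoxA1 libraries it had 8.22, 8.94 and 8.73 RPKM, against 6.90, 7.15 and 6.55 RPKM in pGIPZ libraries. Neither pair of groups overlapped: the shFOXA1 values all lay below their controls and the shFoxA1 values all lay above theirs. The change in shFOXA1, -0.54 ± 0.24, did not pass over all 12 libraries of the experiment (adjusted p = 0.0653). It passed without the third shBUB3 library (the same change, adjusted p = 6.08e-07) or with the compared groups alone (adjusted p = 1.87e-05). It did not pass after median-ratio scaling (-0.39, adjusted p = 0.166) or with the trend with transcript length removed (-0.40, adjusted p = 0.0644). The rise in shFoxA1 was 0.29 ± 0.05 (adjusted p = 0.00059). With FOXA1 re-expressed the level was lower, with changes against shFoxA1 of -0.36 ± 0.05 with K295A (adjusted p = 9.42e-05) and -0.36 ± 0.05 with WT (adjusted p = 0.000108).

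In shBUB3 libraries NCOA2 had 9.09, 9.03 and 3.43 FPKM, so the third library lay below and the other libraries above every pLKO library. The change was -0.25 over all libraries (adjusted p = 0.376) and 0.14 without the third (adjusted p = 0.025). In shUSP7 libraries NCOA2 had 9.77, 10.1 and 9.36 FPKM, above every pLKO library, and the change of 0.24 did not pass over all libraries (adjusted p = 0.413) but passed with the third shBUB3 library left out (adjusted p = 0.00056) or with the compared groups alone (adjusted p = 0.00302). In siEZH2 libraries it had 7.31, 5.89 and 6.09 FPKM, against 9.16, 8.95 and 6.99 FPKM in siCtrl libraries. The highest siEZH2 value exceeded the lowest siCtrl value, and the fall of -0.33 ± 0.11 (adjusted p = 0.0271) did not pass after median-ratio scaling (-0.15, adjusted p = 0.249). Nor did it pass without the first or the second siCtrl or the second or the third siEZH2 library (adjusted p of 0.0596 to 0.0959).

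NCOA3 was the least abundant of the tested genes in the controls of the pLKO and pGIPZ experiments and rose in both FOXA1 knockdowns. It had 6.38, 6.47 and 6.40 FPKM in shFOXA1 and 6.75, 6.67 and 6.74 FPKM in shUSP7 libraries, against 4.37, 4.44 and 4.36 FPKM in pLKO libraries. In shFoxA1 libraries it had 5.05, 5.14 and 5.66 RPKM, against 3.80, 3.66 and 3.68 RPKM in pGIPZ libraries. In siEZH2 libraries it had 2.94, 2.54 and 2.72 FPKM, against 5.49, 5.43 and 4.60 FPKM in siCtrl libraries. No group overlapped its control: the 3 shRNA groups were above it and siEZH2 was below. The changes were 0.46 ± 0.12 in shFOXA1 (adjusted p = 0.0042, and 0.61 after scaling), 0.52 ± 0.12 in shUSP7 (adjusted p = 0.00238), 0.41 ± 0.06 in shFoxA1 (adjusted p = 0.000178) and -0.72 ± 0.10 in siEZH2 (adjusted p = 9.12e-05, and -0.56 after scaling). With FOXA1 re-expressed NCOA3 averaged 3.93 ± 0.20 RPKM in shFoxA1 + K295A and 3.77 ± 0.33 RPKM in shFoxA1 + WT libraries (SD, n = 3 each), with changes against shFoxA1 of -0.35 ± 0.06 and -0.40 ± 0.06 (adjusted p = 0.000516 and 0.000198). In shBUB3 libraries it had 5.55, 5.36 and 3.40 FPKM, and the change of 0.08 (adjusted p = 0.589) was 0.26 without the third library (adjusted p = 7.75e-05).

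The balance of coactivators to NCOR1, as the sum of NCOA1, NCOA2 and NCOA3 over NCOR1, was 0.659 ± 0.019 in shFoxA1 and 1.15 ± 0.036 in pGIPZ libraries, where NCOR1 had the larger rise. It was 0.955 ± 0.046 in shFoxA1 + K295A and 1.01 ± 0.029 in shFoxA1 + WT libraries. In shUSP7 libraries it was 1.17 ± 0.026 and in pLKO libraries 0.875 ± 0.011, and in siEZH2 libraries it was 1.02 ± 0.035 against 0.808 ± 0.050 in siCtrl libraries (SD, n = 3 each). The shFOXA1 libraries, at 0.892 ± 0.028, overlapped the pLKO libraries. In shBUB3 libraries the ratio was 1.03, 1.02 and 0.780, so the third library lay below and the other libraries above every pLKO library.

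K295A and WT FOXA1 were compared directly. None of the 8 tested genes passed (limma, 0 also at an unadjusted p under 0.05), and 0.183% of all genes did, which is 23 genes, with 1310 at an unadjusted p under 0.05. The changes ran from -0.06 for NCOA1 (95% interval -0.18 to 0.05) to 0.08 for TLE1 (95% interval -0.02 to 0.19). For TLE3 the change was 0.06 (95% interval -0.03 to 0.15) and for NCOR1 0.06 (95% interval -0.02 to 0.14). For both genes every K295A library lay above every WT library, and neither passed (adjusted p = 0.63 and 0.601). The share of all genes without overlap is not given here. Over the 8 genes no bound of an interval went past 0.19 in size. Set against pGIPZ libraries, 4 of the 8 tested genes were higher with K295A (TLE1, TLE3, AES and NCOR1), where 37.8% of all genes passed as higher and 50.5% in either direction. With WT these 4 and NCOA1 were higher, 5 of 8, where 33.7% of all genes passed as higher and 45.5% in either direction. No tested member passed as lower in these comparisons, and NCOA1 did not pass with WT after median-ratio scaling (0.07, adjusted p = 0.346) or without the first or the third library of either group (adjusted p of 0.0505 to 0.0789). NCOA2 did pass as lower after that scaling, at -0.18 with K295A (adjusted p = 0.0157) and -0.16 with WT (adjusted p = 0.0303).

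The shRNA groups of the pLKO experiment were also compared with each other. Between shFOXA1 and shUSP7 libraries 6 of the 8 tested genes passed (70.9% of all genes), TLE1 and TLE2 higher and TLE3, AES, NCOA1 and NCOA2 lower in shFOXA1. The sharpest contrast besides TLE1 was AES, with a change of -1.23 ± 0.08 (adjusted p = 9.53e-08). The change of NCOA1 was -0.50, and -0.33 after scaling. Between shFOXA1 and shBUB3 libraries 4 passed (73.4% of all genes), TLE1 and NCOA3 higher and TLE3 and AES lower in shFOXA1. AES changed by -0.65, and by -0.42 after scaling. After median-ratio scaling TLE2 (0.39, adjusted p = 0.00153), NCOR1 (0.41, adjusted p = 0.00308) and NCOA1 (0.40, adjusted p = 0.0101, limma) also passed as higher in shFOXA1. All of these passed as well with the trend with transcript length removed. NCOA3 changed by 0.38, by 0.59 after scaling, and did not pass with these groups alone in the fit (adjusted p = 0.054). NCOA2 changed by -0.28 there (adjusted p = 0.305), and by -0.68 without the third shBUB3 library (adjusted p = 2.14e-07), where NCOA3 changed by 0.20 in place of 0.38 and TLE2 also passed (0.26, adjusted p = 0.00654). Between shUSP7 and shBUB3 libraries 7 passed (65.2% of all genes), all of them except TLE2 higher in shUSP7. TLE2 was lower, at -0.25 ± 0.08 (adjusted p = 0.0182), which did not pass after median-ratio scaling (-0.21, adjusted p = 0.0529), with these groups alone (adjusted p = 0.0563) or without the first shUSP7 library (adjusted p = 0.0728). With these groups alone NCOR1 (adjusted p = 0.0758) and TLE3 (adjusted p = 0.128) did not pass either, and NCOR1 did not pass without the first shUSP7 library (adjusted p = 0.0531). The change of 0.16 for TLE3 also failed to pass without the second or the third shUSP7 library (adjusted p of 0.121 to 0.154) or without the filter on low values (adjusted p = 0.0549). Without the third shBUB3 library TLE3 did not pass (adjusted p = 0.102), and the changes of NCOR1 and NCOA3 were 0.15 and 0.26 in place of 0.30 and 0.44. In these comparisons the median of all genes lay at -0.12 for shFOXA1 against shUSP7 and at -0.15 for shFOXA1 against shBUB3.

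Other genes of the pathway were read from 5 gene lists. Of all genes tested, 62.2% passed in shUSP7, 65.2% in shBUB3 and 70.3% in shFOXA1 against pLKO libraries. The shares were 63.3% in siEZH2 against siCtrl and 49.2% in shFoxA1 against pGIPZ libraries. The counts of genes that rose or fell in each list are to be read beside these shares. Among 21 other corepressors, 10 rose and 1 fell in shFoxA1 against pGIPZ libraries, with a median change of 0.13 where the median of all genes was 0.0011. In shFOXA1 against pLKO libraries 7 rose and 8 fell (median -0.09, all genes -0.15), and in siEZH2 against siCtrl libraries 9 rose and 7 fell (median 0.04, all genes -0.16). CTBP2, a corepressor of the CtBP family, rose in both FOXA1 knockdowns, to 30.2 FPKM in shFOXA1 against 13.9 FPKM in pLKO libraries (1.07 ± 0.05, adjusted p = 4.02e-09) and to 19.8 RPKM in shFoxA1 against 11.2 RPKM in pGIPZ libraries (0.77 ± 0.05, adjusted p = 2.83e-07). TBL1XR1, a subunit of the NCOR1 complex, rose to 85.2 FPKM in siEZH2, against 29.7 FPKM in siCtrl libraries (1.48 ± 0.10, adjusted p = 1.07e-06). In shUSP7 against pLKO libraries 7 rose and 6 fell (median -0.07, all genes -0.02), and in shBUB3 3 rose and 9 fell (median -0.14, all genes 0.0071).

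Of 24 other coactivators, 22 were tested in the pGIPZ experiment, where 15 rose and 1 fell in shFoxA1 (median 0.24, all genes 0.0011). In the pLKO experiment 23 were tested: 8 rose and 5 fell in shUSP7 (median 0.07, all genes -0.02), 3 rose and 12 fell in shBUB3 (median -0.25, all genes 0.0071), and 4 rose and 10 fell in shFOXA1 (median -0.11, all genes -0.15). In siEZH2 5 of 23 rose and 9 fell (median -0.04, all genes -0.16). CITED2, which binds the acetyltransferases CBP and p300, rose in 4 knockdowns: to 50.8 FPKM in shUSP7 and 45.9 FPKM in shFOXA1, against 21.2 FPKM in pLKO libraries, to 66.5 FPKM in siEZH2 against 23.5 FPKM in siCtrl libraries, and to 80.8 RPKM in shFoxA1 against 35.9 RPKM in pGIPZ libraries. MED1, the Mediator subunit that contacts nuclear receptors, fell to 2.81 FPKM in shFOXA1, against 9.91 FPKM in pLKO libraries (-1.52 ± 0.13, adjusted p = 7.35e-07).

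Among 38 nuclear receptors, 24 were tested in the pLKO and siRNA experiments and 23 in the pGIPZ experiment. In siEZH2 2 rose and 14 fell (median -0.36, all genes -0.16), and NR3C2, the mineralocorticoid receptor, had the largest change of the list, a rise, at 6.26 FPKM in siEZH2 and 1.55 FPKM in siCtrl libraries (1.51 ± 0.08, adjusted p = 3.5e-07). In shFOXA1 7 rose and 9 fell (median 0.04, all genes -0.15), in shFoxA1 10 rose and 4 fell (median 0.06), in shUSP7 5 rose and 9 fell (median 0.0079) and in shBUB3 4 rose and 10 fell (median -0.13). RXRA, the shared partner of many receptors, rose to 47.1 FPKM in shFOXA1 against 17.6 FPKM in pLKO libraries (1.37 ± 0.04, adjusted p = 1.74e-10) and to 38.8 RPKM in shFoxA1 against 20.3 RPKM in pGIPZ libraries (0.90 ± 0.03, adjusted p = 2.4e-10). Against shFoxA1 it changed by -0.79 with K295A and by -0.78 with WT.

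Factors that recruit TLE proteins to DNA mostly did not reach the level for testing: 10 of 28 were tested in the pLKO and siRNA experiments and 9 in the pGIPZ experiment, FOXA1 itself among them. In shFOXA1 2 rose and 8 fell (median -0.66, all genes -0.15), in siEZH2 2 rose and 6 fell (median -0.40), in shFoxA1 none rose and 6 fell (median -0.33), in shUSP7 2 rose and 4 fell (median -0.10), and in shBUB3 2 rose and 5 fell (median -0.10). FOXA1 is counted among the falls in shFOXA1 and shFoxA1, where it was the target, and in siEZH2. HES6, of the HES family, averaged 15.8 FPKM in shFOXA1 and 78.3 FPKM in pLKO libraries (-2.25 ± 0.12, adjusted p = 1.08e-08), and 25.1 FPKM in siEZH2 and 78.3 FPKM in siCtrl libraries (-1.60 ± 0.11, adjusted p = 9.11e-07). With FOXA1 re-expressed it reached 585 RPKM with K295A and 677 RPKM with WT, against 46.0 RPKM in shFoxA1 and 61.7 RPKM in pGIPZ libraries. These changes against pGIPZ, 3.23 ± 0.04 and 3.44 ± 0.04, went far past those of any member of the TLE family in the same comparisons. HES1, of the same family, went the other way from HES6. It averaged 9.90 FPKM in shFOXA1 and 4.07 FPKM in pLKO libraries (1.11 ± 0.13, adjusted p = 1.02e-05, limma). With FOXA1 re-expressed HES1 averaged 2.94 RPKM with K295A and 2.80 RPKM with WT, against 7.01 RPKM in pGIPZ libraries. Of 15 Wnt target genes, which TCF/LEF factors with TLE proteins hold silent without a Wnt signal, 7 were tested: 1 rose and 5 fell in shFOXA1, 3 rose and 3 fell in shFoxA1, 4 rose and 1 fell in siEZH2, 5 rose and 2 fell in shUSP7, and 1 rose and 3 fell in shBUB3. The shares of all genes that passed in these comparisons were 70.3%, 49.2%, 63.3%, 62.2% and 65.2% in the same order. The median change of the list was -0.52 in shFOXA1, -0.10 in shFoxA1, 0.23 in siEZH2, 0.18 in shUSP7 and -0.15 in shBUB3, where the medians of all genes were -0.15, 0.0011, -0.16, -0.02 and 0.0071. TNFRSF19 fell in both FOXA1 knockdowns, to 0.794 FPKM in shFOXA1 against 9.91 FPKM in pLKO libraries and to 8.10 RPKM in shFoxA1 against 21.9 RPKM in pGIPZ libraries, and rose to 24.2 FPKM in siEZH2 against 11.3 FPKM in siCtrl libraries.

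For each tested member the genes with the most similar course were taken as those with the highest Pearson correlation over the 30 libraries, after the mean of the controls of each experiment was subtracted, among 11545 genes tested in all 3 experiments. The libraries of a group share their treatment, so these values describe 10 groups more than 30 independent points. They include the third shBUB3 library and were not computed without it. TLE1 was most alike PNRC1 (r = 0.97), a proline-rich nuclear receptor coactivator, and GFOD2 (r = 0.96). TLE3 was most alike GAREML (r = 0.97) and GCNT1 (r = 0.95), and TLE2 was most alike LTBP4 (r = 0.96) and DUS3L (r = 0.92). AES was most alike FCF1 (r = 0.97) and CCT4 (r = 0.97), a subunit of the cytosolic chaperonin. NCOR1 was most alike ITPR1 (r = 0.97), a calcium channel of the endoplasmic reticulum, and SNX29 (r = 0.93). NCOA1 was most alike PDS5B (r = 0.91), NCOA2 BMP2K (r = 0.91) and NCOA3 TTC3 (r = 0.94).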

How the data were processed

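Levels came from tables that the authors deposited, in FPKM for the pLKO and siRNA libraries and in RPKM for the pGIPZ libraries, that is, fragments or reads scaled by gene length and library total. The submitters' processing notes name STAR and the genome build hg38. STAR's version, the counter and the annotation were not given in the sources used here. The labels' protocols name an NEBNext Ultra RNA kit. Each table listed 26475 genes, 32 of them without values, and 0 pairs of columns were identical.

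Tests used log2(value + 1). A gene entered a fit if it reached 1 in 3 or more of its libraries. Each experiment was fitted alone in limma 3.58.1 (R 4.3.3), with group means, a variance trend on mean level and two-sided moderated statistics. Each of 13 comparisons was adjusted by Benjamini-Hochberg over all genes tested, and 95% intervals come from the same fits. For 3 against 3 libraries, exact permutation reaches no p under 0.1, so it was not used. The fit was tested on simulated data. Python 3.11.15, NumPy 2.4.6, pandas 2.3.3 and matplotlib 3.10.9 did the rest. Read totals are not held here, so precision rests on the spread between libraries and no counting intervals are given. Nothing was tested across tables, which were normalized separately. Scaling to the library total ties each gene's level to all others, and median-ratio scaling was an alternative, beside those listed in the closing section.

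Members and gene lists were chosen with earlier results of these data known. The naming rule took all members in every comparison, the targeted genes, a further gene that is not reported here, up to 2 passing genes with the largest change per list and comparison (a part of them given here) and the 2 most similar genes per member.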

Additional observations from a re-analysis of the deposited data

Results flagged for a closer look

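NCOA2 went opposite ways in the FOXA1 knockdowns, with every library of each group on its own side of the controls. Its log2 change was -0.54 in shFOXA1 against pLKO libraries and 0.29 in shFoxA1 against pGIPZ libraries. The first did not pass over all 12 libraries (adjusted p = 0.0653, limma), though it did without the third shBUB3 library. After median-ratio scaling it was -0.39 (adjusted p = 0.166). Of all genes, 70.3% and 49.2% passed in these comparisons. The share of all genes that went opposite ways without overlap is not given here. The difference between the NCOA2 changes was not tested, because the tables of the experiments were normalized separately.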

How the results depend on the processing

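The alternatives were a pseudocount of 0.1, no filter on low values, median-ratio scaling, the compared groups alone in the fit, the replicate number as a block and each library left out. Removal of the trend with transcript length, and leaving the third shBUB3 library out of comparisons without shBUB3, were chosen after seeing the data. Of 1264 values of single members, 1160 kept their direction and their side of the threshold, 40 no longer passed, 32 newly passed and 32 changed sign, 30 of which passed under neither setting. The other 2 newly passed: NCOA2 in shBUB3 against pLKO (0.14 without shBUB3 library 3) and NCOR1 in shFOXA1 against pLKO (0.10 with the length trend removed). Sign changes with median-ratio scaling and with the length trend removed were NCOR1 (0.13 and 0.10) and TLE2 (0.039 and 0.033) in shFOXA1 against pLKO, NCOR1 (0.056 and 0.087) and NCOA3 (0.10 and 0.11) in shFOXA1 against shUSP7, NCOA3 (-0.072 and -0.064) and TLE2 (-0.039 and -0.038) in WT against pGIPZ, NCOA3 (-0.038 and -0.026) and TLE2 (-0.031 and -0.029) in K295A against pGIPZ, and NCOA1 (-0.084 and -0.014) in WT against shFoxA1. NCOA1 in K295A against pGIPZ was -0.012 with the scaling, and AES in shUSP7 against pLKO was 0.0070 with the trend removed. With a library left out, the members below changed sign in a part of the fits, and the ranges cover all such fits. In shBUB3 against pLKO they were -0.185 to 0.084 for NCOA1, -0.45 to 0.14 for NCOA2 and -0.026 to 0.26 for NCOA3. The range was -0.019 to 0.029 for NCOA1 in WT against shFoxA1 and -0.042 to 0.050 for NCOA3 in WT against pGIPZ. In K295A against WT the ranges were -0.043 to 0.025 for NCOA2 and -0.018 to 0.073 for TLE2. Members passing in shFOXA1 against shBUB3 numbered 7 with median-ratio scaling and 7 with the length trend removed, against 4. In shUSP7 against shBUB3 they numbered 4 with those groups alone, against 7, and 5 to 8 with a library left out. The 23 genes passing between K295A and WT numbered 11 without the filter, 6 with those groups alone and 9 to 18 with a library left out. The cause of these changes was not tested.

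Libraries with the same replicate number did not deviate together (correlations from -0.185 to 0.126 in the pLKO, -0.126 to 0.058 in the siRNA and -0.069 to 0.0414 in the pGIPZ experiment), and 4 of 12, 2 of 6 and 1 of 12 libraries correlated best with their own number, so the numbers do not pair them. With the replicate block, 14 genes passed between K295A and WT, and members passing were 4 in shUSP7, 4 in shBUB3 and 4 in shFOXA1 against pLKO, 8 in siEZH2 against siCtrl and 7 in shFoxA1 against pGIPZ. TLE3 no longer passed in shUSP7 against pLKO (adjusted p = 0.0509) or shBUB3 (adjusted p = 0.0653), and TLE2 newly passed in shFOXA1 against shBUB3 (adjusted p = 0.0395). Depth is not known in reads, so TLE4, which stayed under 1, is described by steps and by fits without the filter.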

Other observations

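Over the 30 libraries, after the mean of each experiment's controls was subtracted, the members' levels correlated with each other as follows, as a description in which libraries of a group share their treatment. TLE2 and NCOA3 ran opposite (Pearson r = -0.82), as did TLE1 and AES (r = -0.68). NCOR1 and NCOA2 (r = 0.62) and TLE3 and AES (r = 0.61) ran together, while TLE1 and NCOR1 did not (r = 0.05). These values include the third shBUB3 library and were not computed without it. In that library NCOA2 (-1.18), NCOA3 (-0.55), NCOA1 (-0.54) and NCOR1 (-0.45) all lay below the mean of the other shBUB3 libraries.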
